A study of Tetranychus urticae with 8 samples.

Results

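Chitin synthase 1 (CHS1) of the spider mite Tetranychus urticae, a plant-feeding arachnid, is the gene tetur03g08510. It is 1 of the 17654 gene IDs counted and was taken by its ID, with no threshold on its values. RNA sequencing was done on whole bodies of adult mites of strain London kept on detached leaves of common bean, with 4 libraries of males and 4 of females. Per the labels, each male library pooled about 800 intact animals aged 1 to 2 days and each female library about 200 intact animals aged 3 days. The ages were set at the maturity of each sex, and more males were pooled because they are smaller. Sex, age and the number of animals in a pool thus changed together, and their parts in any value below cannot be told apart. The files do not pair IDs with names, so the identity of CHS1 rests on the published naming of this gene in the species.

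Chitin synthases are membrane enzymes that join N-acetylglucosamine units, taken from UDP-N-acetylglucosamine, into chains of chitin, which are passed across the membrane to the outside of the cell. In arthropods the enzyme of the CHS1 type serves the epidermis and makes the chitin of the cuticle, which is laid down anew at each moult. In spider mites CHS1 is known as the target of etoxazole and related growth inhibitors that kill eggs and immature stages, and a single amino acid change in it gives resistance. Adults do not moult again, and adult females carry developing eggs.

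CHS1 was higher in males than in females. In males its mean level was 24.5 ± 1.8 CPM (SD, n = 4), and in females it was 4.32 ± 0.47 CPM (SD, n = 4). CPM here is the read count of a gene divided by the library size in megareads, the libraries being scaled to one another with TMM, the trimmed mean of M values. The log2 fold change, female minus male, was -2.50 ± 0.10 (SE), which is a 5.66-fold higher level in males (95% interval 4.86 to 6.59; adjusted p = 3.37e-12 by edgeR's quasi-likelihood test, Benjamini-Hochberg). The gene was detected in every library of both sexes.

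The counts behind these levels were moderate in males and low in females. Male replicates 1 to 4 had 343, 486, 326 and 360 reads on CHS1, and female replicates 1 to 4 had 77, 61, 60 and 51. The sums were 1515 reads over the male libraries and 249 over the female libraries. Library depth was of the same order in both sexes, at 12082575 to 21414612 reads on genes in males and 12912850 to 17443223 in females. With every library thinned to 12082575 reads, males kept 269 to 326 reads on CHS1 and females 48 to 57. All of these counts stood far above the limit of 3 reads, which is 0.142 to 0.248 CPM depending on the library.

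After scaling, the male libraries stood at 25.0, 23.0, 26.9 and 23.2 CPM in replicates 1 to 4. The female libraries stood at 4.37, 4.70, 4.58 and 3.64 CPM. Every male library lay above every female library: the lowest male level was 4.90 times the highest female level, and the highest male level 7.39 times the lowest female level. The difference of the means was -20.2 CPM, female minus male, and passed an exact two-sided permutation test at the smallest p that the 70 assignments of the libraries allow (p = 0.0286). Every gene without overlap between the sexes has this p, and all male libraries lay above all female libraries in 44.2% of tested genes. In bulk samples such as these, fewer cells that express the gene and less RNA of it per cell cannot be told apart. CPM is also a share of the reads of a library, so absolute amounts of CHS1 RNA were not measured.

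**Figure D1:**
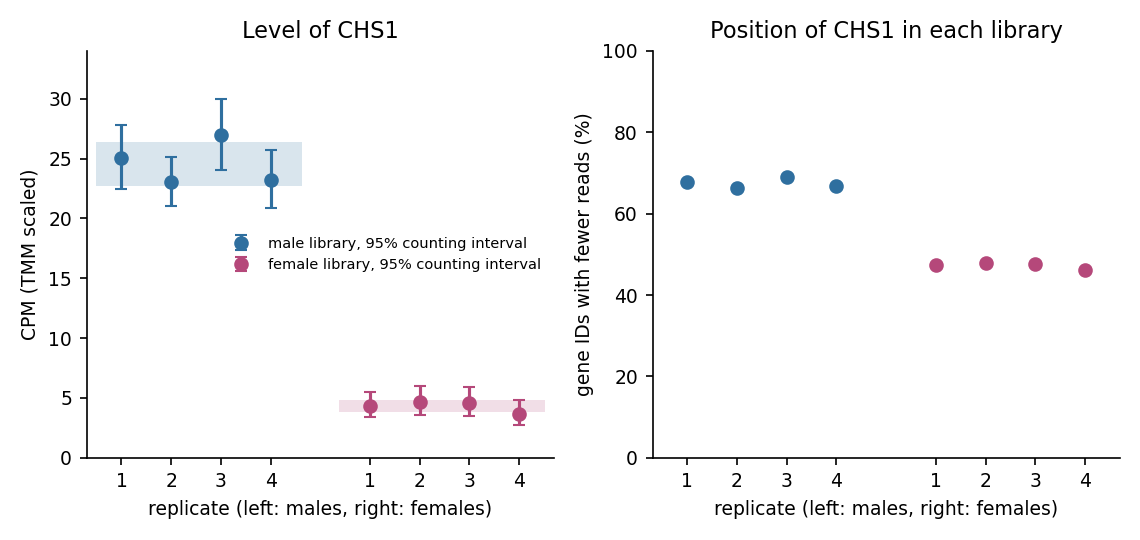
Left, the level of CHS1 in each library in TMM-scaled CPM, with exact Poisson 95% intervals for counting error as bars and the mean ± SD of each sex as a shaded band. Right, the percentage of all 17654 gene IDs that had fewer reads than CHS1 in the same library. The 4 male libraries sit between 23.0 and 26.9 CPM and the 4 female libraries between 3.64 and 4.70 CPM, with no overlap on either scale. In CPM, all male libraries lay above all female libraries in 44.2% of tested genes.

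Within a sex the libraries were close to one another. Among males the order from high to low was replicate 3, 1, 4 and 2, and the 95% counting intervals of the highest (24.1 to 30.0 CPM) and the lowest (21.0 to 25.1 CPM) overlapped. Among females the order was replicate 2, 3, 1 and 4, and the intervals of the highest (3.59 to 6.03 CPM) and the lowest (2.71 to 4.79 CPM) overlapped as well. Neighbours in either order were therefore not set apart by these intervals, but overlap of intervals does not show that the levels were equal. These exact Poisson intervals cover counting error only.

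The coefficient of variation of CHS1 was 7.44% among male libraries, against 5.20% from counting alone. It was 10.9% among female libraries, against 12.8% from counting alone, so the spread between female pools was no larger than their read numbers give. The female value rests on replicate 4, without which it was 3.12%. Of the 200 tested genes nearest to CHS1 in mean male level, 90 varied more between male libraries. Of the 200 nearest in mean female level, 146 varied more between female libraries. CHS1 thus stood near the middle of these genes in its spread between male pools, and below the middle in its spread between female pools.

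The call was read against a transcriptome in which most genes differed between the sexes. A call required an adjusted p below 0.05 and at least a 2-fold difference, and 30.5% of the 12885 tested genes were called higher in males and 26.9% higher in females. All male libraries lay above all female libraries in 44.2% of tested genes. Neither being called nor lack of overlap therefore sets CHS1 apart from other genes. Over all tested genes the median log2 fold change was -0.05.

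The size of the CHS1 difference was near the middle of the genes higher in males. Among the 3935 of these, 1745 (44.3%) had a more negative log2 fold change than CHS1, and their median was -2.30. Over all tested genes, 1746 (13.6%) had a more negative log2 fold change. Disregarding direction, 3019 genes (23.4%) differed between the sexes by a larger factor. Among the 200 tested genes nearest to CHS1 in average log2 CPM, 67 were called higher in males and 56 higher in females, and 27 had a more negative log2 fold change than CHS1. The shares of this class, 33.5% and 28.0%, were close to those of all tested genes.

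**Figure D2:**
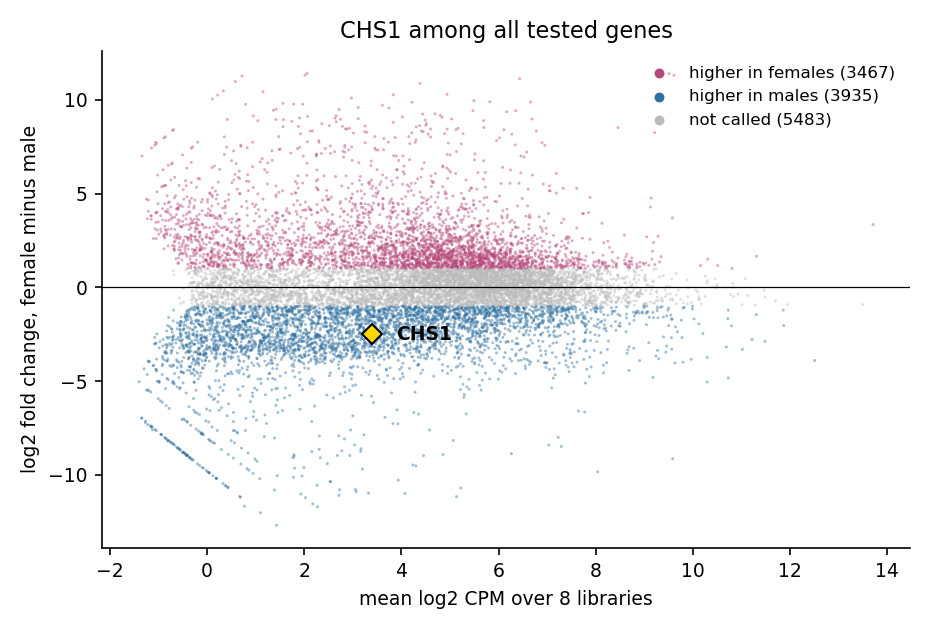
Log2 fold change (female minus male) against mean log2 CPM over the 8 libraries for the 12885 tested genes, coloured by call, with CHS1 as a diamond whose bar is ± 1 SE and is shorter than the symbol. CHS1, at -2.50, lies inside the band of genes higher in males and not at its edge.

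The rank of CHS1 was set by reads per gene, not divided by length, since the files give no gene lengths. Long transcripts collect more reads, so the ranks compare reads and not numbers of molecules, while the change in rank between the sexes concerns the same gene in both. In male libraries CHS1 ranked between 5470.5 and 5935 of the 17654 IDs from the top, with tied IDs given their average rank. In female libraries it ranked between 9179 and 9508.5. The percentage of IDs with fewer reads than CHS1 was 67.8, 66.4, 69.0 and 66.7 in male replicates 1 to 4. In female replicates 1 to 4 it was 47.4, 47.9, 47.6 and 46.1. The sexes did not overlap in rank either. The share of all genes without overlap in rank was not counted. In CPM, all male libraries lay above all female libraries in 44.2% of tested genes, so this does not set CHS1 apart.

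The mean rank percentile was 67.5 ± 1.2 in males and 47.3 ± 0.83 in females (SD, n = 4 each). The difference, female minus male, was -20.2 percentage points (exact two-sided permutation p = 0.0286, the smallest possible). This measure needs no scaling between libraries. Among tested genes alone, the percentage with fewer reads was 55.4 ± 1.6 in males and 27.7 ± 1.1 in females.

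By mean CPM over the 4 libraries of a sex, CHS1 was in place 5735 of the 12885 tested genes in males and in place 9296 in females. In reads it was therefore above the middle of the male list and below the middle of the female list: the median tested gene stood at 19.2 CPM in the male libraries and at 22.0 CPM in the female ones. The fall of 3561 places from the male to the female list was matched or exceeded by 1175 tested genes (9.12%), and the median change of place in either direction was 1568.

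**Figure D3:**
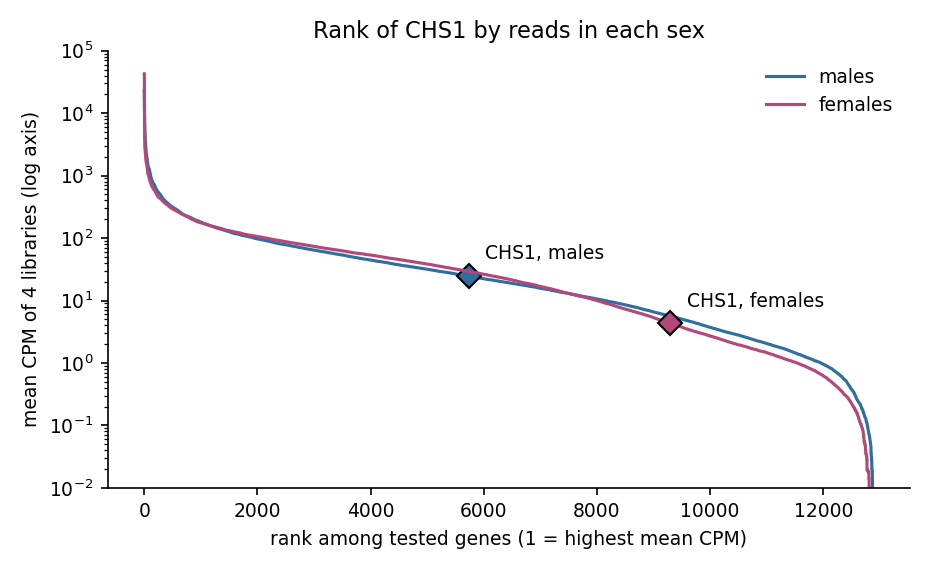
Mean CPM (log axis) of the 12885 tested genes in order of rank, drawn for each sex, with CHS1 as a diamond on each curve. CHS1 is in place 5735 in males, at 24.5 CPM, and in place 9296 in females, at 4.32 CPM.

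Genes with the same amount of reads as CHS1 in one sex mostly did not share its level in the other. The 200 tested genes nearest to CHS1 in males stood between 23.7 and 25.4 CPM there, and had a median of 26.3 CPM in females (quartiles 8.74 and 49.2). Of these, 31 were lower in females than the 4.32 CPM of CHS1. The 200 tested genes nearest to CHS1 in females stood between 4.04 and 4.62 CPM there, and had a median of 6.92 CPM in males (quartiles 2.15 and 17.3). Of these, 27 were higher in males than the 24.5 CPM of CHS1. Both numbers are descriptions of means, with no test.

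The 2 genes whose pattern over the 8 libraries was most like that of CHS1 were tetur31g01170 and tetur22g00400. Likeness was the Euclidean distance between log2 CPM profiles, each centred on the gene's own mean, so it disregards the level. The distances were 0.213 for tetur31g01170 and 0.216 for tetur22g00400, against a median of 3.56 over all tested genes. Neither ID is paired with a name in the files.

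The gene tetur31g01170 had 416, 601, 380 and 403 reads in male replicates 1 to 4 and 104, 78, 71 and 61 in female replicates 1 to 4. Male libraries averaged 29.0 ± 2.4 CPM and female libraries 5.42 ± 0.75 CPM (SD, n = 4 each), and its log2 fold change was -2.41 ± 0.10 (SE). Like CHS1, it was highest among males in replicate 3 and lowest among females in replicate 4, a likeness that its choice by profile favours. Its lowest male library was replicate 4, at 26.0 CPM, where that of CHS1 was replicate 2.

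The gene tetur22g00400 had 770, 1221, 715 and 917 reads in male replicates 1 to 4 and 193, 153, 154 and 123 in female replicates 1 to 4. Male libraries averaged 58.0 ± 1.4 CPM and female libraries 10.8 ± 1.4 CPM (SD, n = 4 each), and its log2 fold change was -2.43 ± 0.08 (SE). It too was lowest among females in replicate 4, so that all 3 genes were lowest there in that sex, which the choice by profile also favours. Among males, unlike CHS1, it was highest in replicate 4 (59.1 CPM) and lowest in replicate 1 (56.2 CPM).

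The genes nearest to CHS1 in pattern spanned a wide range of levels. The 50 tested genes with the smallest distances, from 0.213 to 0.361, had male means from 9.32 to 422 CPM. Their log2 fold changes, from -2.67 to -2.30, lay near that of CHS1 because the genes were chosen by profile. The number 50 was set and does not count how many genes share the pattern. Of these 50 genes, 4 had IDs beginning with tetur03, as had 664 of the 12885 tested genes.

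The IDs next to CHS1 in number were also examined, because overlapping or adjacent genes can exchange reads when counted. ID order is taken here as numbering, since no positions were available. The tested ID just before CHS1 had 397 to 543 reads in female libraries and 1287 to 1652 in male libraries, with a log2 fold change of -1.57 ± 0.09 (SE; adjusted p = 1.58e-10 by edgeR). The tested ID just after it had 2 to 3 reads in female libraries and 16 to 23 in male libraries, with a log2 fold change of -2.97 ± 0.35 (SE; adjusted p = 1.14e-06 by edgeR). Both were thus called higher in males, as CHS1 was, at levels above and below its own. Whether reads are shared between these genes was not tested. The libraries were strand-specific, but the strand setting of the counting is not given in the sources used here.

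In the wider stretch of the 10 tested IDs on either side, 6 of 20 were called higher in males and 1 higher in females, and the median log2 fold change was -0.12. The 30.0% higher in males is close to the 30.5% of all tested genes and the 32.1% of the 664 tested tetur03 IDs. In the 5 IDs on either side the count was 5 of 10 higher in males and 0 higher in females. Of the 20 neighbours, 4 had a more negative log2 fold change than CHS1. Among these 4, the ID 3 places before CHS1 was not called, and the ID 4 places before it overlapped between the sexes. The ID just after CHS1 had only 2 to 3 reads in female libraries.

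**Figure D4:**
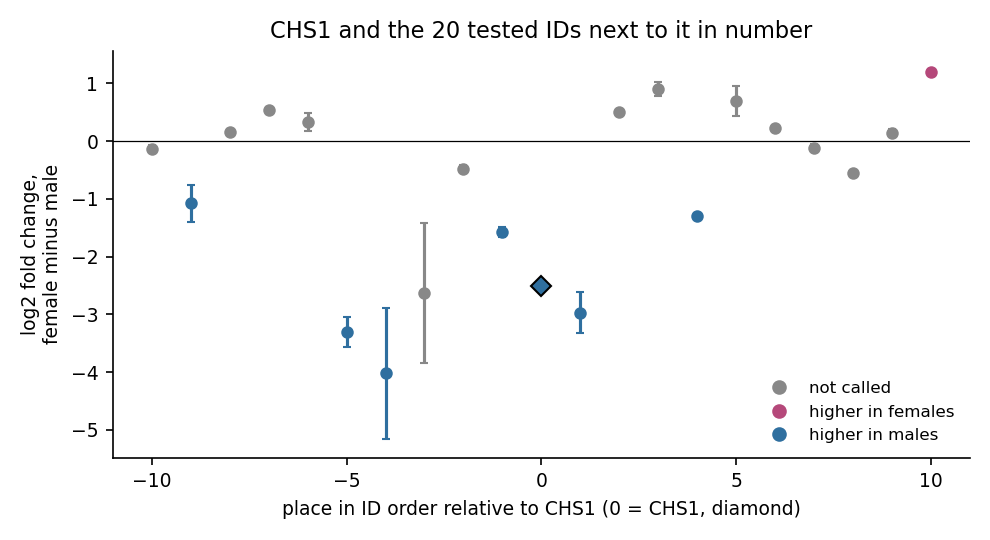
Log2 fold change (female minus male, bars ± 1 SE) of CHS1, shown as a diamond at 0, and of the 10 tested IDs before and after it in numerical order, coloured by call. The single IDs just before and just after CHS1 are higher in males, and beyond 5 places most IDs lie near 0.

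The difference in CHS1 did not hinge on the way the counts were processed. Its log2 fold change ranged from -2.71 to -2.43 over the 17 alternatives, and the gene was called higher in males in each of them. The most negative value came with upper quartile scaling, which moved the median of all tested genes by -0.21 to -0.27. Relative to that median, CHS1 stood at -2.45 with TMM and at -2.45 with upper quartile scaling. A change of scaling shifts all genes by nearly the same amount, so this equality is no separate check of the difference.

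**Figure D5:**
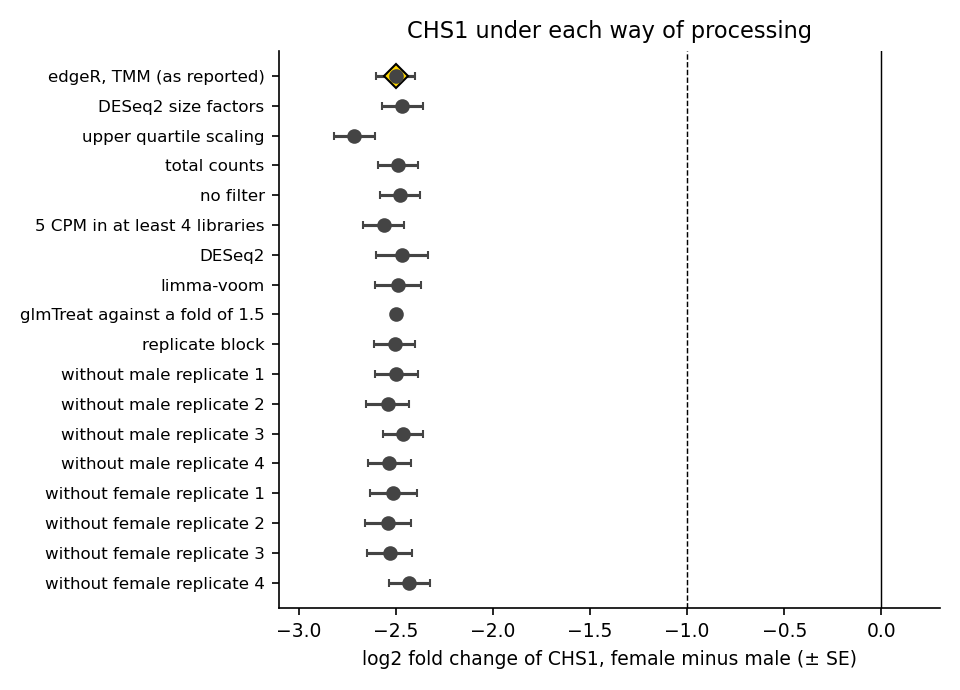
Log2 fold change of CHS1 (female minus male, bars ± 1 SE where the method gives one) as reported and under each of the 17 alternatives. The solid line marks no difference and the dashed line a 2-fold higher level in males, and all points lie between -2.71 and -2.43.

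No other gene of chitin metabolism could be placed beside CHS1. Lists had been set up as search patterns for chitin synthases, chitinases, chitin deacetylases, cuticle proteins and the enzymes that make UDP-N-acetylglucosamine. The RefSeq gene table of the species matched 0 of the 17654 IDs, so these lists stayed empty and were not counted. For the same reason no markers of tissues were examined, and the levels of CHS1 are those of whole bodies, not resolved by tissue.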

How the data were processed

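The deposited values are raw counts of reads per gene ID, not normalized by the authors, with 1 column per library, per the file headers. The submitters' processing notes list STAR (2.4.1d) and HTSeq (0.6.1). Not given in the sources used here are the build, annotation and counting settings. Libraries were strand-specific with oligo dT selection, per the labels' protocols. Whether the replicates were separate cultures is not stated in the labels, so p-values reflect only how far the pools differed from one another, which may be technical.

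Genes were filtered with filterByExpr (12885 kept), scaled by TMM and tested by edgeR (4.0.16, under R 4.3.3) with its quasi-likelihood method on a model holding sex alone, with Benjamini-Hochberg adjustment over all tested genes. SE was obtained as the size of the log2 fold change over the square root of the F statistic. Profiles used a prior count of 2. The step was tested on simulated data. Only a small share of genes differed there, so that test does not cover data in which most genes differ. Alternatives were 3 scalings, 2 filters, DESeq2 version 1.42.0, limma-voom (limma version 3.58.1), glmTreat, a replicate block and leaving out each library.

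The rule names the gene by its ID alone, but the gene, lists and tests were chosen with earlier results of these data known. By rule, CHS1 and the 2 genes nearest in distance were named. The 200 genes of like average level, the 50 nearest profiles and the single adjacent IDs were added after the data were seen.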

Additional observations from a re-analysis of the deposited data

How the results depend on the processing

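CHS1 was called higher in males in all 17 alternatives, with a log2 fold change of -2.54 to -2.43 as single libraries were left out and -2.71 to -2.47 otherwise (adjusted p between 4.85e-77 and 1.83e-10). The difference in CPM ranged from -22.4 to -19.5. That in rank percentile ranged from -20.6 to -19.7 among all IDs and was -27.7 among tested genes alone, which is another scale. Each had an exact permutation p of 0.0286. Any measure without overlap between the sexes returns this p, so its recurrence is no separate check of the difference. With 3 against 4 libraries, 0.0286 is the smallest p that the 35 assignments allow when the absolute difference of means is compared. A doubled one-sided p would be 0.0571 there, above 0.05. The counts of genes called in each direction stayed within 1.5 times. The share of tested genes with a more negative log2 fold change than CHS1 was 14.6% with no filter (16141 genes tested) and 11.7% with the filter at 5 CPM (10235 tested), and 13.0% to 14.3% as single libraries were left out. The female coefficient of variation was 3.12% to 13.6% as single libraries were left out, the lowest without female replicate 4. With distances that keep the level, 0 of the 2 named genes were among the nearest 2, since that measure also asks for a like level. With 5 IDs on either side, 50% of the neighbours were higher in males. Libraries with the same replicate number were not treated as paired in the main model, which held sex alone. Their deviations from the means of their sex correlated at -0.09, 0.0017, 0.019 and 0.035, and 1 of 8 libraries correlated best with its own number. Such low correlations cannot show that the libraries were unpaired by design. With the replicate block the log2 fold change of CHS1 was -2.50, with 3472 genes called for females and 3932 for males. Depth limits the female values most, at 51 to 77 reads per library.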

Other observations

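A pair of IDs 3 and 4 places before CHS1 varied widely between pools of the same sex, unlike CHS1 itself. They were singled out after their values were seen. The nearer of them ranged from 1.49 to 652 CPM in male libraries and from 0.227 to 73.8 CPM in female libraries. Its log2 fold change of -2.63 ± 1.21 (SE) did not pass the test (adjusted p = 0.0527 by edgeR). The farther ranged from 117 to 2586 CPM in males and from 10.2 to 263 CPM in females. Its log2 fold change of -4.02 ± 1.14 (SE) passed (adjusted p = 0.00397 by edgeR), although the sexes overlapped. CHS1 ranged by a factor of 1.17 between male libraries and 1.29 between female libraries.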
